A study of Homo sapiens with 9 samples.

Results

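The 3 libraries of GIST-T1 with an sgRNA against HAND1 were compared directly with the 3 libraries with an sgRNA against ETV1. The comparison took every gene of the table and 6 of the 9 libraries of the series, chosen by the sgRNA named in the labels. GIST-T1 is an established human line of a gastrointestinal stromal tumour (GIST), a tumour of the gut wall, and it carries an activating mutation of the receptor KIT. Each library was made from polyA RNA of that single line, and the labels name no drug, dose or time. All 3 groups carried a guide: HAND1 sgRNA, ETV1 sgRNA, or a control sgRNA against Luciferase, a gene that human cells lack. The Luciferase sgRNA libraries were left out of the tests reported here, except for 1 alternative fit over all 9 libraries, and their levels are given beside some genes as a reference. The labels call the perturbation a knockdown. Whether the libraries of a group are separate cultures is not stated, so the p-values rest on a spread between libraries that may be technical.

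ETV1 belongs to the ETS family of transcription factors. It is expressed in interstitial cells of Cajal, which pace the movements of the gut, and in GIST, and KIT signalling through ERK is known to stabilise the ETV1 protein. HAND1 has a basic helix-loop-helix domain, binds E-box sequences with a partner protein and is known from the development of heart, placenta and gut mesenchyme. Both factors are known as parts of the transcription programme that keeps KIT and other lineage genes active in GIST. A direct comparison of the 2 sgRNAs asks where lowering one factor leaves the transcriptome in a different state from lowering the other.

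The values are FPKM, fragments scaled to the length of the transcript and to the size of the library, so levels of different genes can be set side by side. No read counts were used, and the absolute depth is unknown. Relative to ETV1 sgRNA replicate 1, the depth of the other 5 libraries ranged from 0.775 to 1.16, and between 11286 and 11345 genes reached 1 FPKM in each. The 8 GIST markers checked were all at or above 1 FPKM in both groups, with CD34 the highest at means of 1534 and 1762 FPKM. The defining smooth muscle markers DES, MYH11, CNN1 and ACTG2 summed to between 0.179 and 1.40 FPKM with ETV1 sgRNA and between 1.01 and 2.74 FPKM with HAND1 sgRNA. Most markers of other cell types lay below 1 FPKM: 17 of 20 neuronal and glial, 16 of 20 epithelial and, with ETV1 and HAND1 sgRNA, 17 and 18 of 21 blood and endothelial markers. The summed levels of these lists, which rest mainly on TUBB3, KRT18 and EGFL7, were 59.7 to 66.9, 227 to 251 and 76.9 to 91.5 FPKM with ETV1 sgRNA. With HAND1 sgRNA they were 65.7 to 69.3, 211 to 225 and 72.5 to 76.4 FPKM.

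Each targeted transcript was low in the libraries with its own sgRNA. ETV1 was at 10.9, 12.03 and 11.2 FPKM with ETV1 sgRNA and at 40.8, 39.8 and 41.8 FPKM with HAND1 sgRNA. HAND1 was at 134, 133 and 130 FPKM with ETV1 sgRNA and at 37.6, 40.8 and 36.5 FPKM with HAND1 sgRNA. Neither gene's values overlapped between the groups. The differences, HAND1 sgRNA minus ETV1 sgRNA on the scale log2(FPKM + 1), were 1.75 (SE 0.059) for ETV1 and −1.76 (SE 0.053) for HAND1, each with an adjusted p of 3.62e-07 in limma with Benjamini-Hochberg adjustment. The 2 differences were of like size. The check is a limited one, because a guide that cuts its gene can also leave transcripts that make no protein.

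Of 11343 genes tested, limma called 485 different at an adjusted p under 0.05, which is 4.28% of them. With HAND1 sgRNA 234 genes were higher than with ETV1 sgRNA (2.06%) and 251 were lower (2.21%), while the median difference over all genes tested was −0.0030. An unadjusted p under 0.05 was reached by 1903 genes, 16.8% of those tested. Most differences were moderate. The absolute log2 difference of the called genes had a median of 0.45 and reached 3.05, and 13 higher genes (0.115%) and 21 lower genes (0.185%) differed by at least 2-fold. The 2 groups did not overlap in any called gene, as in 22.4% of all genes tested. Fewer genes were called in fits without ETV1 sgRNA replicate 1 (306), HAND1 sgRNA replicate 1 (302) or HAND1 sgRNA replicate 3 (285). In RNA of whole cultures a lower level per cell and fewer expressing cells cannot be told apart.

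The Luciferase sgRNA mean lay nearer to ETV1 sgRNA in 447 of the 485 called genes and nearer to HAND1 sgRNA in 38. In 227 genes it lay between the 2 means. In Luciferase sgRNA replicate 3 ribosomal protein genes took 10.3% of the summed FPKM, against 7.36% to 8.35% in the 6 libraries compared, and without that library the counts were 442 and 43. The 38 genes nearer to HAND1 sgRNA included ETV1 itself, EGR1, FOS, ACTA2, COL12A1, PDGFRA and APOBEC3B. These 2 counts and the names describe where a reference level stood and were not tested. The same counts over all genes tested were not made, so the share is not read as particular to the called genes.

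**Figure D1:**
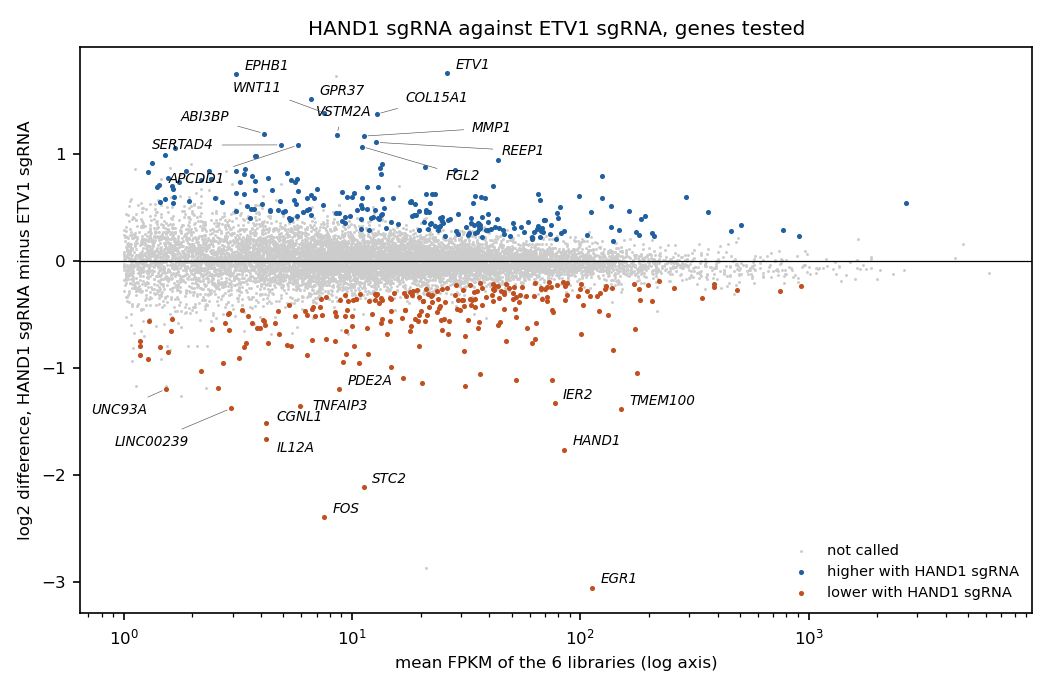
Difference between HAND1 sgRNA and ETV1 sgRNA in mean log2(FPKM + 1) against the mean FPKM of the 6 libraries (log axis), 1 point per gene tested. Blue points are the 234 genes called higher with HAND1 sgRNA, orange points the 251 called lower, and the 12 largest differences in each direction are named, from EGR1 at −3.05 to ETV1 at 1.75.

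The 2 largest called differences were in immediate early genes, which growth factor signalling through ERK switches on within minutes. EGR1, a zinc finger transcription factor, was at 193, 191 and 221 FPKM with ETV1 sgRNA and at 21.6, 21.1 and 27.9 FPKM with HAND1 sgRNA. FOS, a subunit of the AP-1 transcription factor, was at 12.7, 12.6 and 14.8 FPKM with ETV1 sgRNA and at 1.61, 1.78 and 1.80 FPKM with HAND1 sgRNA. The groups lay far apart in both genes, by −3.05 for EGR1 (SE 0.10, limma adjusted p = 3.62e-07) and by −2.40 for FOS (SE 0.095, adjusted p = 1.07e-06) on the log2 scale. Their Luciferase sgRNA means, 67.3 FPKM for EGR1 and 2.18 FPKM for FOS, lay between the groups, that of FOS close to HAND1 sgRNA. On the log2 scale, Luciferase sgRNA minus HAND1 sgRNA was 1.49 for EGR1 and 0.21 for FOS. Luciferase sgRNA minus ETV1 sgRNA was −1.57 and −2.19.

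EGR1 is a textbook target of serum response factor, which binds the CArG box, so its promoter is shown. The 250 bases before the RefSeq start of EGR1 (GRCh38.p14, chr5:138465229-138465478, plus strand) hold 2 CArG boxes, printed in capitals, at 105 to 96 and 83 to 74 bases before the start.
EGR1: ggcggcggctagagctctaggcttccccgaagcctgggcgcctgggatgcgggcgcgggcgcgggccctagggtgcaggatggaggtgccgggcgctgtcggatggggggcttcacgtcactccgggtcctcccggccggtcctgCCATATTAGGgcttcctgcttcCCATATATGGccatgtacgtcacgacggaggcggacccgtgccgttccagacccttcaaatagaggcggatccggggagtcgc
A CArG box was present in the same window of 1.14% of all 27305 RefSeq promoters and in 1.04% of the promoters of genes tested, searched on both strands. Of the 12 largest falls, 10 had a promoter in the table, and EGR1 was the 1 with a CArG box. The window of FOS held no match, which says only that the letters are not in these 250 bases.

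Other immediate early genes were lower with HAND1 sgRNA as well. IER2, an early response regulator, was at 104, 107 and 123 FPKM with ETV1 sgRNA and at 43.4, 40.4 and 46.7 FPKM with HAND1 sgRNA (log2 −1.33, adjusted p = 1.26e-05). JUNB, an AP-1 partner of FOS, was at 28.3, 24.5 and 31.9 FPKM against 12.3, 12.7 and 11.5 FPKM (log2 −1.14, adjusted p = 1.34e-04). Both genes had Luciferase sgRNA means between the groups, 77.6 FPKM for IER2 and 19.7 FPKM for JUNB. BTG2, an antiproliferative early gene, went the other way, from a mean of 31.4 FPKM with ETV1 sgRNA to 40.2 FPKM with HAND1 sgRNA (log2 0.35, adjusted p = 0.00484). Of 20 immediate early transcription factors and partners tested, a list that does not hold IER2, 5 were lower and 1 higher. Over all genes tested 4.28% were called, and the median difference of the 20 was −0.045. Besides EGR1, FOS and JUNB, the lower genes of this list were the RNA-binding proteins ZFP36 (log2 −0.63, adjusted p = 0.0356) and ZFP36L1 (log2 −0.23, adjusted p = 0.0169). The adjusted p of ZFP36 was 0.0949, 0.0579 and 0.129 when replicate 1, 2 or 3 of ETV1 sgRNA was left out, and 0.119 and 0.120 when replicate 1 or 3 of HAND1 sgRNA was. That of ZFP36L1 was 0.0680 and 0.0645 without replicate 1 or 2 of ETV1 sgRNA and 0.0728 and 0.0796 without replicate 1 or 3 of HAND1 sgRNA. The lower count was 3 without ETV1 sgRNA replicate 1 or 2 or HAND1 sgRNA replicate 1 or 3.

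Further genes that ERK signalling induces were lower with HAND1 sgRNA. Of 19 MAPK output genes tested, 8 were lower and 0 higher, against 2.21% and 2.06% of all genes tested, with a median difference of −0.24. An unadjusted p under 0.05, in either direction, was reached by 15 of the 19, against 16.8% of all genes tested. The list also held 4 members with a positive difference, the largest 0.60, and none of them was called. Besides EGR1, FOS and IER2 the lower genes were DUSP6, PHLDA1, SPRY4, ETV5 and RASL11A. DUSP6, the phosphatase that switches ERK off, was at 122, 122 and 130 FPKM with ETV1 sgRNA and at 76.7, 75.2 and 80.3 FPKM with HAND1 sgRNA (log2 −0.68, adjusted p = 7.40e-05). PHLDA1, a protein with a pleckstrin homology-like domain, was at 59.5, 58.8 and 60.3 FPKM against 33.9, 34.2 and 36.9 FPKM (log2 −0.75, adjusted p = 4.99e-05). Means of SPRY4, a feedback inhibitor of receptor tyrosine kinases, were 124 and 97.9 FPKM (log2 −0.33, adjusted p = 0.00267). These genes were not all placed alike against the control. Luciferase sgRNA means were 181 FPKM for DUSP6 and 165 FPKM for SPRY4, above both groups, and 51.1 FPKM for PHLDA1, between them. ETV5, an ETS factor close to ETV1, lost its call without ETV1 sgRNA replicate 1 (adjusted p = 0.0586), and RASL11A, a RAS-like protein, lost it without ETV1 sgRNA replicate 1 or 3 (adjusted p = 0.0589 and 0.0559).

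**Figure D2:**
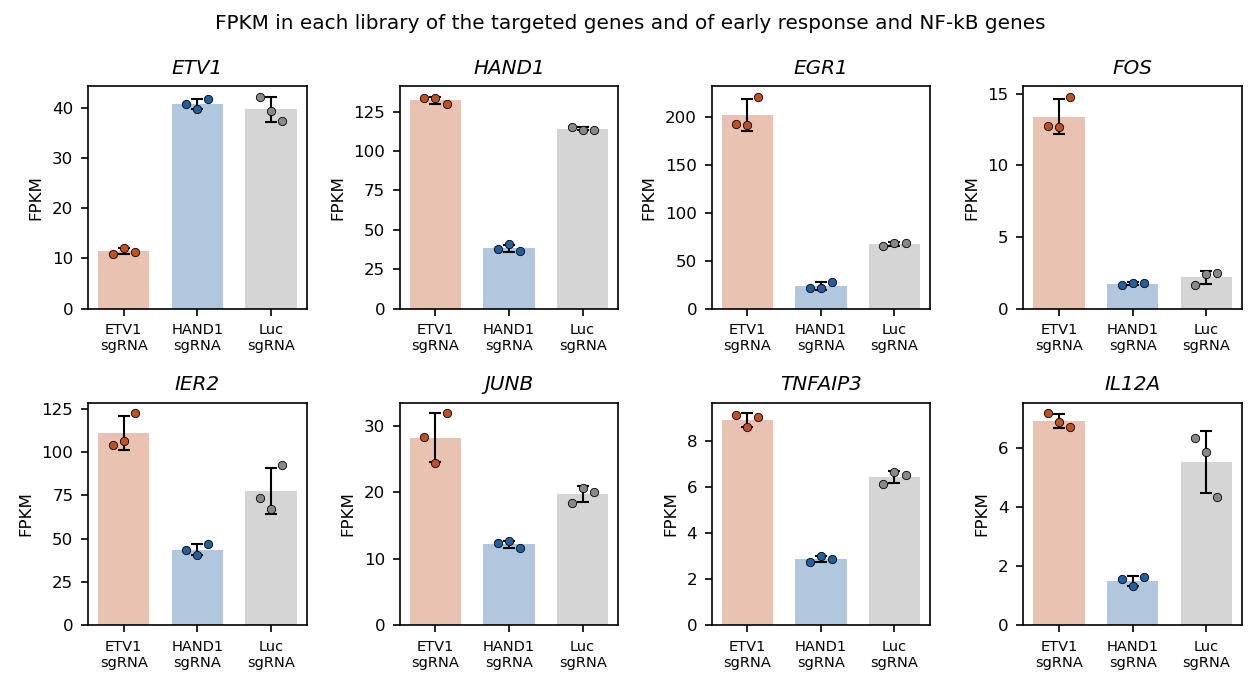
FPKM of 8 genes in each library, with bars for the group mean and error bars for the SD of 3 libraries; the axes start at 0. ETV1 is low with ETV1 sgRNA and HAND1 with HAND1 sgRNA, and in EGR1, FOS, IER2, JUNB, TNFAIP3 and IL12A the 3 HAND1 sgRNA libraries lie below the 3 ETV1 sgRNA libraries.

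Some inflammatory genes were lower with HAND1 sgRNA. IL12A, a subunit of interleukins 12 and 35, was at 7.19, 6.87 and 6.72 FPKM with ETV1 sgRNA and at 1.55, 1.32 and 1.63 FPKM with HAND1 sgRNA (log2 −1.67, adjusted p = 2.10e-05). TNFAIP3, the A20 enzyme that restrains NF-kB signalling, was at 9.16, 8.60 and 9.04 FPKM against 2.72, 2.99 and 2.89 FPKM (log2 −1.36, adjusted p = 2.35e-05). The Luciferase sgRNA means, 5.52 FPKM for IL12A and 6.44 FPKM for TNFAIP3, lay between the groups in both genes. CCL2, a chemokine that attracts monocytes, had means of 25.0 FPKM with ETV1 sgRNA and 16.7 FPKM with HAND1 sgRNA (log2 −0.56, adjusted p = 0.00419). CXCL12, a chemokine of stromal cells, was higher with HAND1 sgRNA, at 17.4 against 9.11 FPKM (log2 0.87, adjusted p = 2.55e-04). PTGS2, an inducible prostaglandin synthase, was lower (log2 −0.32, adjusted p = 0.0295). Its call was lost without any 1 of the 6 libraries: the adjusted p was 0.103, 0.0838 and 0.0570 without ETV1 sgRNA replicates 1, 2 and 3, and 0.111, 0.0580 and 0.0796 without HAND1 sgRNA replicates 1, 2 and 3. Of 11 cytokine and NF-kB response genes tested, 4 were lower and 1 higher with HAND1 sgRNA, against 4.28% called over all genes tested. The median difference was 0.014, and 7 of the 11 had a positive difference. A further 16 members of the list did not reach the filter of a mean of 1 FPKM.

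Because TNFAIP3 and IL12A are both known to respond to NF-kB, their promoters are shown with the matches to the NF-kB site in capitals, again as the 250 bases before the RefSeq start (GRCh38.p14, plus strand). The window of TNFAIP3 is chr6:137867009-137867258 and that of IL12A is chr3:159988585-159988834.
TNFAIP3: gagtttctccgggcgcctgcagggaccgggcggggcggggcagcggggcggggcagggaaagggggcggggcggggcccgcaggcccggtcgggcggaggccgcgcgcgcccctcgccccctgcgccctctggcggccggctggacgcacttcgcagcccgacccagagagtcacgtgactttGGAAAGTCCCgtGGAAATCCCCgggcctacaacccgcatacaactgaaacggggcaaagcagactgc
IL12A: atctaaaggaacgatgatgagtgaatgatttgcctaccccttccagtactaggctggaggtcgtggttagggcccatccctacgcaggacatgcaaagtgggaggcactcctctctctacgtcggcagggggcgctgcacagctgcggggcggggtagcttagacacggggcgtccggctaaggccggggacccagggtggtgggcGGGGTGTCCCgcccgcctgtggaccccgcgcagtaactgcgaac
The TNFAIP3 window holds 2 matches, at 67 to 58 and 55 to 46 bases before the start, and the IL12A window 1, at 44 to 35 bases before it. A match to the NF-kB site was present in 9.57% of all promoters and in 11.6% of those of genes tested, so it is no rare feature. It also occurred in 2 of the 9 promoters found for the 12 largest rises, those of COL15A1 and EPHB1. The E-box CANNTG, the kind of site that HAND1 dimers bind, was in 6 of the 10 promoters found for the largest falls and in 2 of the 9 found for the largest rises, beside 52.4% of the promoters of genes tested. The ETS core CCGGAA was in 1 promoter of each set, IER2 and ETV1, beside 26.4%. Every motif was searched on both strands, and overlaps between motifs were kept.

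3 related genes with the same direction were picked out after their values were seen. CD40, a receptor of the TNF receptor family, had means of 43.6 FPKM with ETV1 sgRNA and 18.8 FPKM with HAND1 sgRNA (log2 −1.17, adjusted p = 5.84e-06). NFKBIZ, a nuclear regulator of NF-kB, had means of 15.5 and 8.03 FPKM (log2 −0.87, adjusted p = 3.51e-04), and its promoter window holds 1 match to the NF-kB site. The windows of PTGS2 and CXCL12 held no match to that site, and no promoter was found for CCL2 and CD40. APOBEC3B, a cytidine deaminase, had means of 12.3 and 7.66 FPKM (log2 −0.61, adjusted p = 0.00353). The Luciferase sgRNA mean of CD40, 42.7 FPKM, lay near ETV1 sgRNA and that of APOBEC3B, 8.08 FPKM, near HAND1 sgRNA.

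Among the transcription factors of GIST and gut mesenchyme, TBX2 and AFF3 differed most apart from the targets. TBX2, a T-box repressor, was at 25.0, 21.3 and 22.9 FPKM with ETV1 sgRNA and at 11.9, 8.83 and 10.2 FPKM with HAND1 sgRNA (log2 −1.09, adjusted p = 3.41e-04). AFF3, a nuclear protein of the super elongation complex family, had means of 4.01 and 1.18 FPKM (log2 −1.19, adjusted p = 0.00185). Luciferase sgRNA was at 28.0 FPKM for TBX2 and 4.54 FPKM for AFF3, nearer to ETV1 sgRNA in both. ID1, an inhibitor of basic helix-loop-helix factors, had means of 118 and 88.6 FPKM (log2 −0.41, adjusted p = 0.00322). PITX1, a homeobox factor, was higher with HAND1 sgRNA at 503 against 416 FPKM (log2 0.27, adjusted p = 0.0208), a call lost when ETV1 sgRNA replicate 1, ETV1 sgRNA replicate 2 or HAND1 sgRNA replicate 3 was left out (adjusted p = 0.0894, 0.0723 and 0.0997). Of 24 such factors tested, both targets included, 3 were higher and 5 lower, against 4.28% called over all genes tested. The median of the 24 was −0.087, and the higher count was 1 without any of these 3 libraries.

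3 of 26 HOX genes tested were lower with HAND1 sgRNA and 0 were higher, against 4.28% called over all genes tested. An unadjusted p under 0.05 was reached by 8 of the 26 (16.8% of all genes tested), and the median was −0.13. HOX genes set the position of tissues along the body axis. HOXB13, a posterior member, had means of 16.3 FPKM with ETV1 sgRNA and 10.6 FPKM with HAND1 sgRNA (log2 −0.58, adjusted p = 0.00284). HOXA11 had means of 81.3 and 62.3 FPKM (log2 −0.38, adjusted p = 0.00300). Its antisense transcript HOXA11-AS moved the same way, from 32.1 to 21.4 FPKM (log2 −0.57, adjusted p = 0.00185), and non-stranded libraries cannot tell the reads of the 2 apart. HOXB9 (log2 −0.52, adjusted p = 0.0187) lost its call without ETV1 sgRNA replicate 2 or 3 (adjusted p = 0.0608 and 0.0719) or HAND1 sgRNA replicate 3 (0.0774). HES1, a transcriptional repressor downstream of Notch that was named after its values were seen, was lower too, at 28.9 against 43.4 FPKM (log2 −0.57, adjusted p = 0.00270).

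KIT and several other lineage genes of GIST were lower with HAND1 sgRNA than with ETV1 sgRNA. KIT, the receptor tyrosine kinase that drives most GIST, was at 204, 218 and 200 FPKM with ETV1 sgRNA and at 156, 159 and 165 FPKM with HAND1 sgRNA (log2 −0.37, SE 0.050, adjusted p = 0.00274). KCTD12, a protein of GABA-B receptor complexes, was at 175, 186 and 177 FPKM with ETV1 sgRNA and between 97.8 and 102 FPKM with HAND1 sgRNA (log2 −0.84, adjusted p = 1.26e-05). In both genes every HAND1 sgRNA library lay below every ETV1 sgRNA library. GPR20, an orphan receptor, had means of 77.8 and 45.1 FPKM (log2 −0.77, adjusted p = 1.78e-04), and PRKCQ, protein kinase C theta, had means of 7.12 and 3.67 FPKM (log2 −0.80, adjusted p = 0.00134). The Luciferase sgRNA means of KIT and GPR20, 209 and 81.6 FPKM, were near those of ETV1 sgRNA.

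Other markers of the lineage were higher or not called. PLAT, tissue plasminogen activator, was at 2152, 2149 and 2243 FPKM with ETV1 sgRNA and at 3205, 3124 and 3152 FPKM with HAND1 sgRNA (log2 0.54, adjusted p = 7.09e-04). ANO1, the calcium-activated chloride channel of interstitial cells of Cajal, had means of 172 ± 1.54 and 170.1 ± 2.31 FPKM (SD, n = 3; log2 −0.016 with a 95% interval from −0.11 to 0.078, limma adjusted p = 0.90). CD34 was not called either (log2 0.20, adjusted p = 0.0773). Of 15 tested markers of GIST or of interstitial cells of Cajal, 4 were lower and 2 higher, ETV1 among the latter. Over all genes tested 4.28% were called, and the median of the 15 was −0.051. In this group genes thus differed in opposite directions, with KIT, KCTD12, GPR20 and PRKCQ on one side and PLAT on the other.

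Other receptor tyrosine kinases differed in both directions. ERBB3, a neuregulin receptor, was higher with HAND1 sgRNA at 12.6 against 7.79 FPKM (log2 0.63, adjusted p = 0.00484). PDGFRA, the receptor mutated in some GIST without a KIT mutation, was lower at 16.2 against 20.5 FPKM (log2 −0.32, adjusted p = 0.0172). The call of PDGFRA was lost without ETV1 sgRNA replicate 2 (adjusted p = 0.0643) and without HAND1 sgRNA replicates 1, 2 and 3 (0.0656, 0.0571 and 0.0505). Of 17 receptor tyrosine kinases and ligands tested, 3 were higher and 2 lower, against 4.28% called over all genes tested, with a median of 0.14. The higher count was 1 without any ETV1 sgRNA library or without HAND1 sgRNA replicate 1 or 3, and the lower count was 1 without ETV1 sgRNA replicate 2 or any HAND1 sgRNA library. EPHB1, a receptor for ephrins that guides cell position, was low with ETV1 sgRNA, at 0.910, 1.27 and 0.541 FPKM, and at 5.80, 5.27 and 4.84 FPKM with HAND1 sgRNA (log2 1.74, SE 0.15, adjusted p = 2.42e-04). Its Luciferase sgRNA mean was 1.01 FPKM. Of 15 ephrin receptors and ephrins tested, EPHB1 and EFNB2 were higher and EPHB3 lower, with a median of −0.0021, and the counts were 1 higher without ETV1 sgRNA replicate 2 or 3 or HAND1 sgRNA replicate 1 or 3, and 0 lower without any 1 of the 6 libraries.

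Secreted signals of the WNT and BMP families differed on both sides. WNT11, a WNT ligand, was at 3.65, 3.30 and 4.32 FPKM with ETV1 sgRNA and at 12.3, 12.2 and 9.69 FPKM with HAND1 sgRNA (log2 1.38, adjusted p = 1.97e-04). SFRP1, a secreted WNT antagonist, was at 101, 107 and 101 FPKM against 49.1, 42.9 and 49.3 FPKM (log2 −1.12, adjusted p = 1.26e-05). APCDD1, a membrane-bound WNT inhibitor, had means of 3.42 and 8.21 FPKM (log2 1.08, adjusted p = 0.00331). A ligand and an inhibitor were thus higher and another inhibitor lower. These 3 were the called members among 22 WNT genes tested, against 4.28% called over all genes tested, and the median of the 22 was −0.030. DKK4, a further WNT antagonist named after its values were seen, was higher at 161 against 113 FPKM (log2 0.51, adjusted p = 0.00319).

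In the BMP group, TMEM100, a membrane protein induced by BMP signalling in endothelium, showed the largest difference. It was at 228, 215 and 216 FPKM with ETV1 sgRNA and at 80.8, 87.0 and 82.7 FPKM with HAND1 sgRNA (log2 −1.38, SE 0.049, adjusted p = 4.47e-07). BMP4 had means of 138 and 190.3 FPKM (log2 0.46, adjusted p = 0.00161), and BMP7 had means of 1.93 and 4.25 FPKM (log2 0.84, adjusted p = 0.00267). BMP4 and BMP7 were thus higher with HAND1 sgRNA, while TMEM100 and ID1, a classical BMP response gene, were lower. Of 20 BMP signalling genes tested, 3 were higher, 2 lower and 15 not called, against 4.28% called over all genes tested, with a median of 0.043. The third higher gene was BMP5 (log2 0.29, adjusted p = 0.0416), with an adjusted p of 0.119 and 0.135 without ETV1 sgRNA replicates 2 and 3 and of 0.0527, 0.104 and 0.148 without HAND1 sgRNA replicates 1, 2 and 3.

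Some genes of the TGF-beta, YAP and Hedgehog pathways were higher with HAND1 sgRNA. CTGF, a matricellular protein induced by TGF-beta and YAP, had means of 9.81 FPKM with ETV1 sgRNA and 16.3 FPKM with HAND1 sgRNA (log2 0.68, adjusted p = 0.00214). AMOTL2, a YAP target and partner, had means of 15.6 and 21.1 FPKM (log2 0.41, adjusted p = 0.00736). Of 18 TGF-beta and YAP response genes tested, 5 were higher and 0 lower, against 4.28% called over all genes tested. An unadjusted p under 0.05 was reached by 9 of the 18 (16.8% of all genes tested). Their median was 0.11, and 7 had a negative difference. The higher count was 2 without ETV1 sgRNA replicate 1 and 3 without HAND1 sgRNA replicate 1, and 1 member was called lower without ETV1 sgRNA replicate 3. GAS1, a co-receptor for Hedgehog ligands, had means of 9.11 and 17.9 FPKM (log2 0.91, adjusted p = 9.89e-05), and GLI3, a transcription factor of the pathway, had means of 19.4 and 25.0 FPKM (log2 0.35, adjusted p = 0.00634). These were the called members of 8 Hedgehog genes tested, whose median was 0.022.

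STC2, stanniocalcin 2, a secreted glycoprotein that blocks the protease which frees insulin-like growth factors, was one of the clearest differences. It was at 18.8, 19.2 and 18.9 FPKM with ETV1 sgRNA and at 3.70, 3.69 and 3.48 FPKM with HAND1 sgRNA (log2 −2.11, SE 0.071, adjusted p = 3.62e-07). The Luciferase sgRNA mean was 24.8 FPKM, above both. IGFBP5, a binding protein of insulin-like growth factors, was lower at 27.8 against 43.3 FPKM (log2 −0.63, adjusted p = 8.13e-04). IGFBP3, another such protein, was higher at 7.28 against 3.99 FPKM (log2 0.73, adjusted p = 0.00247), and its Luciferase sgRNA mean of 1.78 FPKM lay below both groups. Of 7 IGF binding proteins and stanniocalcins tested, 1 was higher and 2 lower, against 4.28% called over all genes tested, with a median of −0.17.

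Genes that handle cyclic nucleotides also differed. PDE2A, a phosphodiesterase that cyclic GMP activates, was at 13.6, 12.3 and 12.1 FPKM with ETV1 sgRNA and at 4.91, 4.65 and 5.27 FPKM with HAND1 sgRNA (log2 −1.20, adjusted p = 4.94e-05). NPR3, the clearance receptor for natriuretic peptides, had means of 155 and 109 FPKM (log2 −0.51, adjusted p = 4.91e-04). PDE3A, a phosphodiesterase that cyclic GMP inhibits, was higher with HAND1 sgRNA at 78.2 against 59.9 FPKM (log2 0.38, adjusted p = 0.00249). GUCY1A3, a subunit of the nitric oxide receptor guanylate cyclase, was higher at 44.4 against 34.4 FPKM (log2 0.36, adjusted p = 0.00619). NPR3, PDE3A and GUCY1A3 were the called members of 7 genes of the natriuretic peptide and cyclic GMP list tested. PDE2A is not on that list. An uncalled member had a larger difference than any called one, at log2 −0.80. Over all genes tested 4.28% were called, and the median of the 7 was 0.081.

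Several collagen transcripts were higher with HAND1 sgRNA. COL15A1, a basement membrane collagen, was at 6.87, 6.15 and 7.17 FPKM with ETV1 sgRNA and at 19.5, 19.3 and 18.0 FPKM with HAND1 sgRNA (log2 1.37, SE 0.077, adjusted p = 1.26e-05). The 2 chains of the major basement membrane collagen were higher together: COL4A1 had means of 33.2 and 45.4 FPKM (log2 0.44, adjusted p = 0.00353) and COL4A2 had means of 31.8 and 42.4 FPKM (log2 0.41, adjusted p = 0.00631). COL5A1, of a fibril-forming collagen, had means of 28.7 and 38.0 FPKM (log2 0.39, adjusted p = 0.00451). COL12A1, a collagen on the surface of fibrils, was the exception at 16.05 against 23.3 FPKM (log2 −0.51, adjusted p = 0.00322), and its Luciferase sgRNA mean was 14.4 FPKM. Of 16 collagens tested, 7 were higher and 1 lower, against 2.06% and 2.21% of all genes tested, with a median of 0.31. The higher count was 4 without ETV1 sgRNA replicate 3 or HAND1 sgRNA replicate 1 or 3.

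The other matrix proteins leaned the same way with exceptions of their own. THBS1, thrombospondin 1, was at 95.4, 87.9 and 89.4 FPKM with ETV1 sgRNA and at 155, 156 and 162 FPKM with HAND1 sgRNA (log2 0.79, SE 0.049, adjusted p = 2.35e-05). DCN, the proteoglycan decorin, had means of 93.8 and 129 FPKM (log2 0.45, adjusted p = 3.99e-04), and MATN2, a matrilin, had means of 8.69 and 13.6 FPKM (log2 0.59, adjusted p = 0.00145). For all 3 the Luciferase sgRNA mean, 83.3, 67.7 and 5.83 FPKM, lay below both groups. FBN1, the microfibril protein fibrillin 1, was lower with HAND1 sgRNA at 23.6 against 39.2 FPKM (log2 −0.71, adjusted p = 4.91e-04). SPARCL1, a matricellular glycoprotein, was lower at 180.3 against 234 FPKM (log2 −0.37, adjusted p = 0.00234). Of 28 such genes tested, 8 were higher and 2 lower, against 2.06% and 2.21% of all genes tested, with a median of 0.22. The higher count was 5 without ETV1 sgRNA replicate 1 or 2 and 4 without ETV1 sgRNA replicate 3 or HAND1 sgRNA replicate 3.

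Some enzymes that remodel the matrix and some of their inhibitors were higher. MMP1, interstitial collagenase, was at 5.08, 9.03 and 5.95 FPKM with ETV1 sgRNA and at 14.4, 17.0 and 16.2 FPKM with HAND1 sgRNA (log2 1.16, adjusted p = 0.00322). ADAMTS8, a secreted metalloprotease, had means of 2.14 and 4.69 FPKM (log2 0.86, adjusted p = 0.00284). TIMP3 and TIMP2, inhibitors of metalloproteases, had means of 51.7 and 66.5 FPKM (log2 0.36, adjusted p = 0.00322) and of 60.9 and 79.2 FPKM (log2 0.38, adjusted p = 0.0117). Of 16 proteases and inhibitors tested, 6 were higher and 0 lower, PLAT included, against 2.06% and 2.21% of all genes tested. An unadjusted p under 0.05 was reached by 11 of the 16, against 16.8% of all genes tested, and the median was 0.21. Over the 3 matrix lists joined, 21 of 60 genes were higher, 3 were lower and 36 were not called. The higher count was 13 without ETV1 sgRNA replicate 3 and 13 without HAND1 sgRNA replicate 3.

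**Figure D3:**
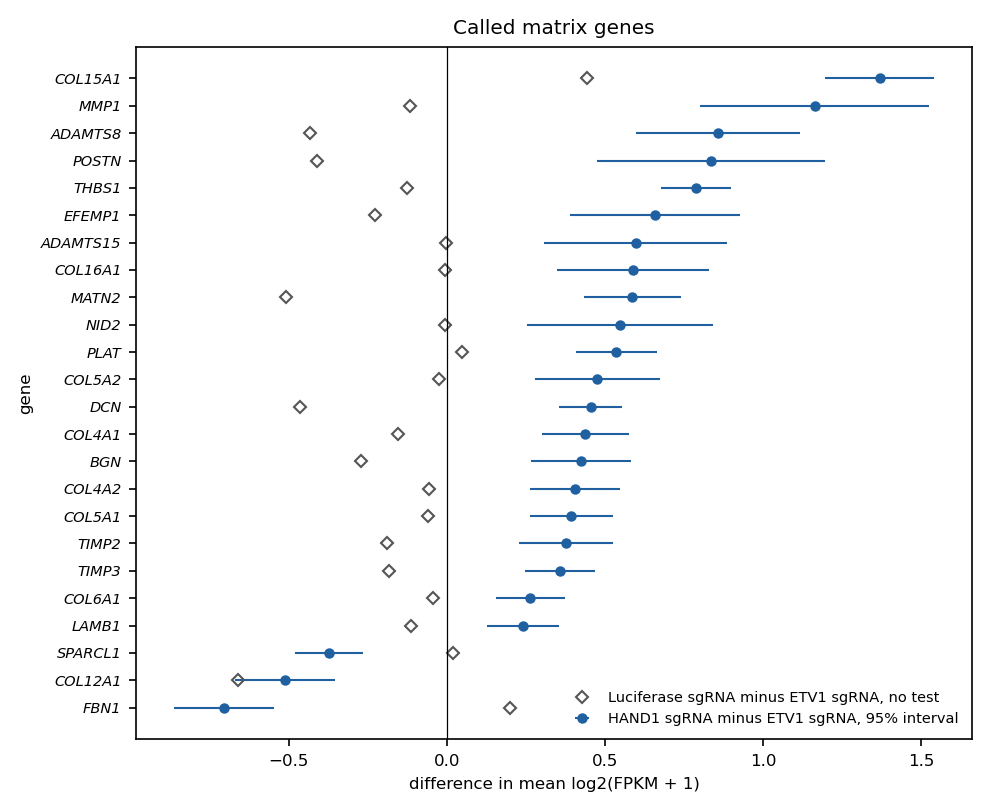
Difference in mean log2(FPKM + 1) between HAND1 sgRNA and ETV1 sgRNA, with 95% intervals from limma, for the 24 called genes of the 3 matrix lists; diamonds mark the Luciferase sgRNA mean minus the ETV1 sgRNA mean, without a test. COL15A1 is highest at 1.37 and FBN1 lowest at −0.71. In all 21 higher genes the Luciferase sgRNA mean lies below that of HAND1 sgRNA. This is common to called genes: of all 485, the Luciferase sgRNA mean lay beyond that of HAND1 sgRNA in 4.

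Smooth muscle genes gave no common picture. ACTA2, smooth muscle actin, was at 75.1, 82.9 and 79.4 FPKM with ETV1 sgRNA and at 46.6, 48.5 and 46.3 FPKM with HAND1 sgRNA (log2 −0.73, adjusted p = 6.58e-05). Its Luciferase sgRNA mean of 52.1 FPKM lay near HAND1 sgRNA. TAGLN, an actin-binding protein of smooth muscle, was higher with HAND1 sgRNA at 6.91 against 3.52 FPKM (log2 0.82, adjusted p = 0.0122), a call lost when replicate 1 of ETV1 sgRNA or of HAND1 sgRNA was left out (adjusted p = 0.0505 and 0.0547). These 2 were the called members of 14 tested, against 4.28% called over all genes tested, and the median of the 14 was 0.059.

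The remaining genes among the 12 largest differences in each direction belong to no list. GPR37, an orphan receptor, was at 2.61, 3.37 and 2.96 FPKM with ETV1 sgRNA and at 10.3, 10.4 and 10.1 FPKM with HAND1 sgRNA (log2 1.51, adjusted p = 2.35e-05). REEP1, a protein that shapes the endoplasmic reticulum, had means of 7.76 and 17.8 FPKM (log2 1.10, adjusted p = 2.08e-04), and FGL2, a fibrinogen-like protein, had means of 6.82 and 15.3 FPKM (log2 1.07, adjusted p = 2.42e-04). ABI3BP, a matrix-binding protein, SERTAD4 and VSTM2A were also higher (log2 1.19, 1.08 and 1.18, adjusted p = 3.51e-04, 6.64e-04 and 0.00668). Among the lower genes, CGNL1, a cytoskeletal protein of cell junctions, was at 6.91, 7.40 and 5.87 FPKM with ETV1 sgRNA and at 1.56, 1.65 and 1.86 FPKM with HAND1 sgRNA (log2 −1.52, adjusted p = 7.57e-05). The non-coding RNA LINC00239 had means of 4.69 and 1.22 FPKM (log2 −1.38, adjusted p = 0.00271), and UNC93A, a membrane protein, had means of 2.52 and 0.547 FPKM (log2 −1.20, adjusted p = 0.00281).

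The cell cycle lists held 1 called gene, against 4.28% of all genes called and 16.8% at an unadjusted p under 0.05. Of 40 S phase genes 0 were called in limma, with 2 at an unadjusted p under 0.05 and a median of 0.0026, and of 13 D-type cyclins, CDKs and CDK inhibitors 0 were called, with 2 at an unadjusted p under 0.05 and a median of 0.022. Of 40 genes of G2 and mitosis PTTG1, securin, was lower (log2 −0.27). That call was lost on leaving out any of the ETV1 sgRNA libraries (adjusted p = 0.0900, 0.0711 and 0.103) or HAND1 sgRNA replicate 1 or 3 (0.111 and 0.127). The 40 S phase genes ranged from −0.22 to 0.21.

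Stress and defence lists held from 0 to 2 calls each, few enough that, against 4.28% of all genes called, they are given as single genes. Of 25 p53 targets tested, GDF15, a stress cytokine, was higher with HAND1 sgRNA at 12.2 against 7.77 FPKM (log2 0.59, adjusted p = 0.00459), as was BTG2. Of 20 interferon response genes IFIT1 was higher at 16.4 against 10.6 FPKM (log2 0.57, adjusted p = 0.00362). Of 29 hypoxia and glycolysis genes EGLN3, an oxygen-sensing prolyl hydroxylase, was higher at 4.87 against 2.40 FPKM (log2 0.79, adjusted p = 0.00228). STC2 was the 1 called member of 29 amino acid and ATF4 stress genes, and BMF, a BH3-only gene, was the 1 of 12 BCL2 family genes (log2 0.40). The call of BMF (adjusted p = 0.0487) was lost without any 1 of the 6 libraries, with an adjusted p of 0.131, 0.0810 and 0.117 without ETV1 sgRNA replicates 1, 2 and 3 and of 0.154, 0.101 and 0.151 without HAND1 sgRNA replicates 1, 2 and 3. Limma called 0 of 22 endoplasmic reticulum chaperones, 0 of 32 cholesterol and fatty acid synthesis genes and 0 of 3 MHC class I genes. In these 3 lists 3, 5 and 0 were at an unadjusted p under 0.05, against 16.8% of all genes tested. Their medians were 0.0022, −0.0018 and 0.0099. Of 7 MHC class I genes 4 did not reach the filter, and 3 were at 0 in all 6 libraries. The ribosomal protein gene RPS18 was at 0 in all of them too, and whether such a 0 means absent expression was not tested.

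Ribosome and respiration genes sat slightly to the lower side without a call. Of 54 ribosomal protein genes tested 50 had a negative difference and the median was −0.094, of 30 ribosome biogenesis genes 25 were negative with a median of −0.067, and of 40 oxidative phosphorylation genes 31 were negative with a median of −0.052. Limma called 0 members of each, against 4.28% of all genes tested, with 8, 6 and 3 at an unadjusted p under 0.05, against 16.8%. Without HAND1 sgRNA replicate 2 it called 7 ribosomal protein genes lower. Ribosomal protein genes took 8.24%, 7.93% and 8.16% of the summed FPKM with ETV1 sgRNA and 7.36%, 8.35% and 7.51% with HAND1 sgRNA, so HAND1 sgRNA replicate 2 was the highest of the 6. The 283 genes with transcripts under 1000 nt moved with the same libraries, with a median of −0.064. Their library deviations were 0.065, −0.048 and 0.094 with ETV1 sgRNA and −0.10, 0.063 and −0.063 with HAND1 sgRNA. Ribosomal protein genes were not removed from the 283, so the sets may share genes. The part of transcript length in these medians was not tested.

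**Figure D4:**
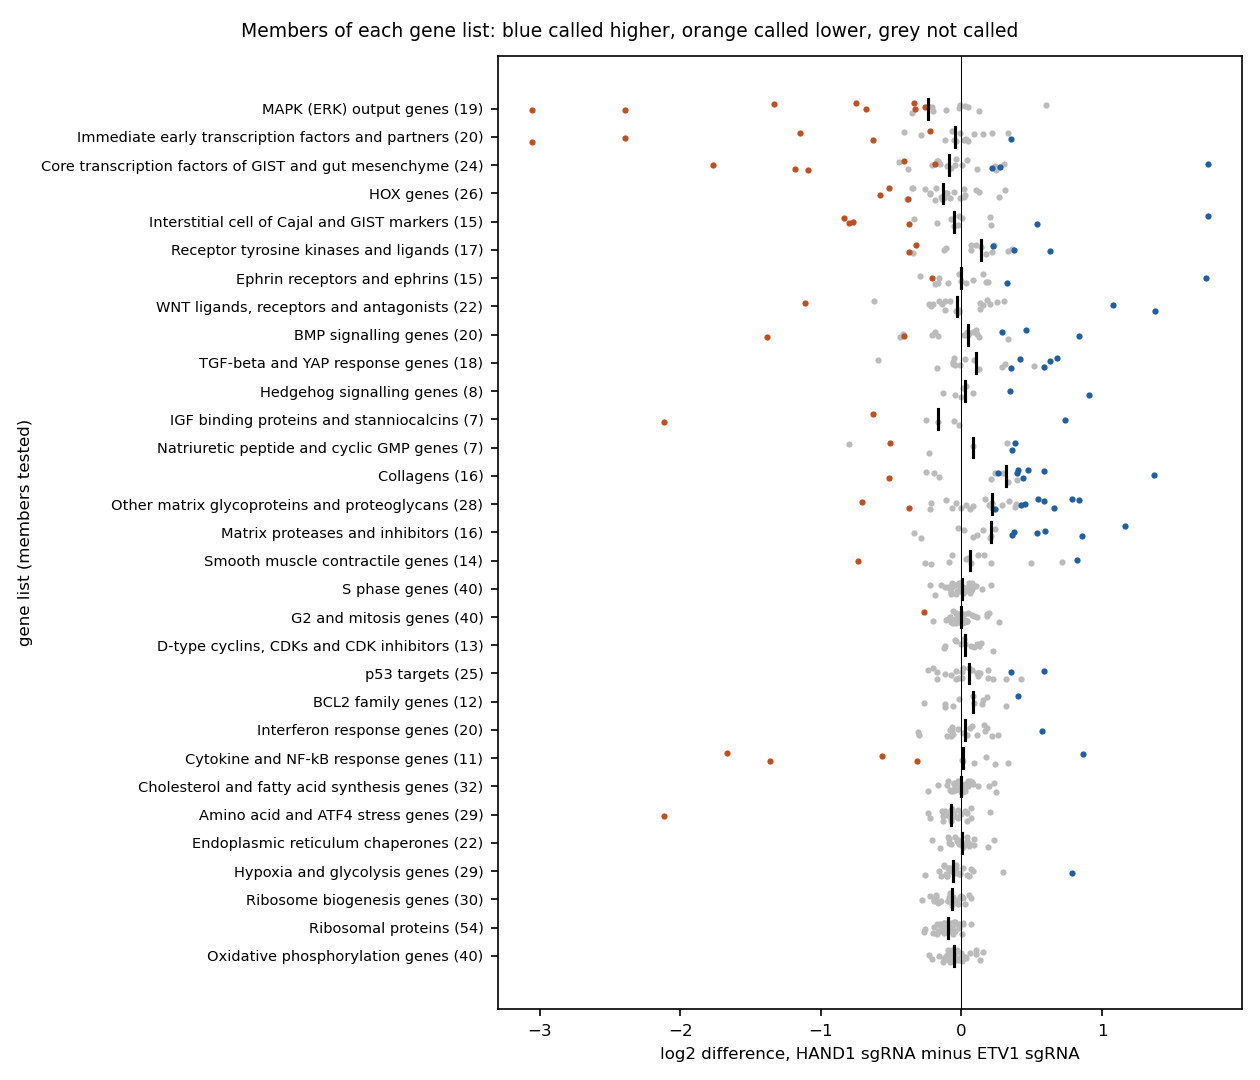
Difference between HAND1 sgRNA and ETV1 sgRNA in mean log2(FPKM + 1) for the tested members of 31 gene lists, 1 point per gene, with a black bar at each list's median; blue and orange points are called higher and lower, grey points not called. The 8 called of 19 MAPK output genes lie on the lower side, and of the 24 called genes of the 3 matrix lists 21 lie on the higher and 3 on the lower side.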

How the data were processed

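Libraries of polyA RNA from GIST-T1 were non-stranded (NEBNext Ultra II), with RNA from the RNeasy Plus kit, per the labels' protocols. The authors deposited FPKM values, 1 per gene symbol and library. STAR, Cufflinks and hg19 are named per the submitters' processing notes, while their versions, the annotation and the scaling between libraries were not given in the sources. Values under 1e-06 were read as 0, and 11343 of 23610 genes reached a mean of 1 FPKM in the 6 libraries and were tested, of which 17 carry a date in place of a symbol and were not named. limma 3.58.1 (R 4.3.3) was run on log2(FPKM + 1) with a term for the group and an intensity trend, giving 4 residual and a median of 5.44 prior degrees of freedom. The tests were two-sided, with Benjamini-Hochberg adjustment over all genes tested and a gene called at an adjusted p under 0.05. The scale understates differences of low genes. The script was tested on simulated data.

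Depth relative to ETV1 sgRNA replicate 1 came from the most frequent ratio of low FPKM values. Named genes are ETV1, HAND1, KIT and DUSP6, the 12 largest called differences in each direction with groups that do not overlap, and up to 4 called members of each of 35 lists (up to 2 where none was called). Other names were chosen after their values were seen, as were the motifs. The comparison, the members and the lists were chosen with earlier results of these data known, so lists are described by counts and medians without a test. Motifs were searched in RefSeq promoters (GRCh38.p14), and no coordinates of the deposited build were used. The 16 alternatives covered the pseudocount, the filter, scaling, trend, library weights, all 9 libraries, a replicate block and each library left out.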

Additional observations from a re-analysis of the deposited data

How the results depend on the processing

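No called gene changed sign under any of the 16 alternatives run. Of 136 called genes that were followed individually, 94 kept their call under all alternatives in which they were tested. Leaving out 1 library at a time gave 285 to 378 called genes against 485 with all 6 libraries, 126 to 163 of them higher and 154 to 223 lower. Such fits hold fewer libraries. The replicate numbers are shared by the groups, but same-numbered libraries did not deviate together (correlations of −0.010, 0.079 and −0.073 across genes), so the numbers were not taken as pairs. With a replicate block 293 genes were called, 137 higher and 156 lower. Without a filter 153 genes were called higher among 16788 tested, where more genes share the adjustment. Among uncalled genes, B2M (−0.047) turned to 0.0049 without ETV1 sgRNA replicate 1 and 0.017 without HAND1 sgRNA replicate 3, and MUC1 (−0.11) turned to 0.047 without HAND1 sgRNA replicate 3. With other libraries left out they reached −0.15 and −0.31. The cause was not tested. TIMP2 lost its call without the intensity trend (adjusted p = 0.0520) and VSTM2A without the filter (adjusted p = 0.0548).

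The depth is known only in relative terms. Most of the genes called were not low, and neither were most of the genes tested. A mean of at least 10 FPKM was reached by 335 of the 485 called genes and by 6591 of the 11343 genes tested.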

Other observations

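Several receptors and guidance genes outside the lists differed between the sgRNAs, and all were named after their values were seen. HTR2B, a serotonin receptor, was higher with HAND1 sgRNA at 21.9 against 14.6 FPKM (log2 0.55, limma adjusted p = 0.00484). VIPR2, a receptor for vasoactive intestinal peptide, was higher at 11.2 against 6.83 FPKM (log2 0.64, adjusted p = 0.00366), and HRH1, a histamine receptor, at 2.98 against 1.36 FPKM (log2 0.76, adjusted p = 0.00887). NPY1R, a neuropeptide Y receptor, was lower at 1.09 against 3.26 FPKM (log2 −1.03, adjusted p = 0.00161). Of genes that steer axons and vessels, NRP2, a co-receptor for semaphorins and VEGF, was at 21.7, 20.5 and 18.2 FPKM with ETV1 sgRNA and at 9.16, 9.02 and 10.6 FPKM with HAND1 sgRNA (log2 −0.997, adjusted p = 2.40e-04). SEMA7A, a membrane-anchored semaphorin, and UNC5B, a netrin receptor, were lower as well (log2 −0.69 and −0.48, adjusted p = 0.00284 and 0.00887). Other guidance genes were higher: NTN4, a netrin, at 2.04 against 0.620 FPKM (log2 0.91, adjusted p = 0.0117, and 0.0605 without HAND1 sgRNA replicate 3), and SLIT2, a ligand of ROBO receptors, at 7.70 against 5.23 FPKM (log2 0.48, adjusted p = 0.0138). The call of SLIT2 was lost when replicate 1 of ETV1 sgRNA or of HAND1 sgRNA was left out (adjusted p = 0.0574 and 0.0675). GFRA3, a receptor for artemin, was higher at 36.7 against 20.0 FPKM (log2 0.85, adjusted p = 6.58e-05), and ANGPT1, a ligand of the endothelial receptor TIE2, at 5.64 against 2.91 FPKM (log2 0.77, adjusted p = 0.00399).

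2 further surface or lysosomal genes stood out on the lower side. ITGA4, an integrin subunit, had means of 25.3 FPKM with ETV1 sgRNA and 14.2 FPKM with HAND1 sgRNA (log2 −0.79, adjusted p = 3.51e-04). CTSL1, the lysosomal protease cathepsin L, had means of 239 and 115 FPKM (log2 −1.05, adjusted p = 3.26e-06), and its pseudogene CTSL1P8 moved with it (log2 −1.06), so the split of reads between the copies is uncertain. PPP2R3A, a phosphatase subunit, was higher with HAND1 sgRNA, at 55.5, 57.7 and 60.05 FPKM against 30.7, 29.5 and 28.98 FPKM (log2 0.94, adjusted p = 1.26e-05).

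The genes next to the targets in the RefSeq annotation were not called. Over all genes tested 4.28% were called and 16.8% had an unadjusted p under 0.05. Of 10 tested neighbours of ETV1 on chromosome 7, limma called 0 and 3 had an unadjusted p under 0.05, with differences from −0.20 to 0.38 and a median of 0.16. Of 10 tested neighbours of HAND1 on chromosome 5 it also called 0 and 4 had an unadjusted p under 0.05, with differences from −0.25 to 0.095 and a median of −0.12. Some uncalled differences were larger than most called ones: H3F3A, a histone gene with near-identical copies, had a log2 difference of −2.87 (adjusted p = 0.0703) with HAND1 sgRNA libraries at 10.3, 9.70 and 0.0026 FPKM.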
